A study of Mus musculus with 8 samples.

Results

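The liver genes examined here were the leptin receptor Lepr and the neighbouring gene Leprot, the hepatokine Fgf21 and its co-receptor Klb, the stress-responsive ligands Gdf15 and Inhbe, and the secreted proteins Ahsg, Fetub, Selenop and Lect2. They are 10 of the 56884 genes counted in every library. The members were chosen by gene name with earlier results of this same comparison in view, so the measured values that bear on their selection are the counts and fold changes of the DIO + DHA group against the DIO group. Their values are therefore given as a description, without a p-value. All mice were C57BL/6J females put at 2 months of age on a high-fat diet in which lipids supplied 45% of the energy. After 4 months, the DIO group stayed on that diet until 18 months of age, and in the DIO + DHA group a fish-oil concentrate with 683.4 mg DHA per g took the place of 15% by weight of the dietary lipids over the same period. Both groups were obese, aged, given the same added tocopherols and fasted overnight before sacrifice, and no lean-fed group was compared here. Poly(A) RNA of the liver was sequenced from its 3′ end in 3 DIO mice (replicates 1, 4 and 5) and 5 DIO + DHA mice (replicates 1, 2, 4, 5 and 6), with 1 library per mouse. The labels give the same batch for all 8 libraries.

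Hepatokines are proteins that the liver secretes to act on other organs or on the liver itself. FGF21 is made by hepatocytes in fasting and under amino acid or mitochondrial stress, and it signals through an FGF receptor bound to beta-Klotho, the product of Klb. GDF15 is a TGF-beta family ligand that acts on a brainstem receptor, whereas leptin arrives from adipose tissue and is read by the receptor that Lepr encodes. The fetuins, selenoprotein P and LECT2 are plasma proteins of hepatocyte origin that have been studied in relation to insulin sensitivity.

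The DIO libraries held 1723800 to 5690347 counts and the DIO + DHA libraries 2846357 to 5080759, and DIO replicate 1 was the shallowest. Levels are given as CPM, counts relative to the library total after TMM scaling, and a fold change is the log2 difference fitted by edgeR with its standard error (SE). Because the counts were not divided by transcript length, levels are compared between groups and not between genes. Hepatocyte markers were plentiful in every library, with a summed level of 72923 to 77848 CPM in the DIO group and 76639 to 90354 CPM in the DIO + DHA group. In bulk RNA, fewer cells of a type and less RNA per cell cannot be told apart.

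The 10 members did not move as 1 block. A gene was called at an adjusted p under 0.05 in the quasi-likelihood test of edgeR over 12412 genes, with Benjamini-Hochberg adjustment, and 15.2% of all genes tested were called. Of the 10 members, all of which passed the filter on low counts, Lepr, Fgf21 and Ahsg were called higher in the DIO + DHA group, where 7.89% of all genes were called higher. Gdf15 and Lect2 were called lower, beside 7.28% of all genes, and the other 5 members were not called. The libraries of the groups did not overlap for those same 5 called members, beside 18.4% of all genes. These counts follow from how the members were chosen and are read no further.

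**Figure D1:**
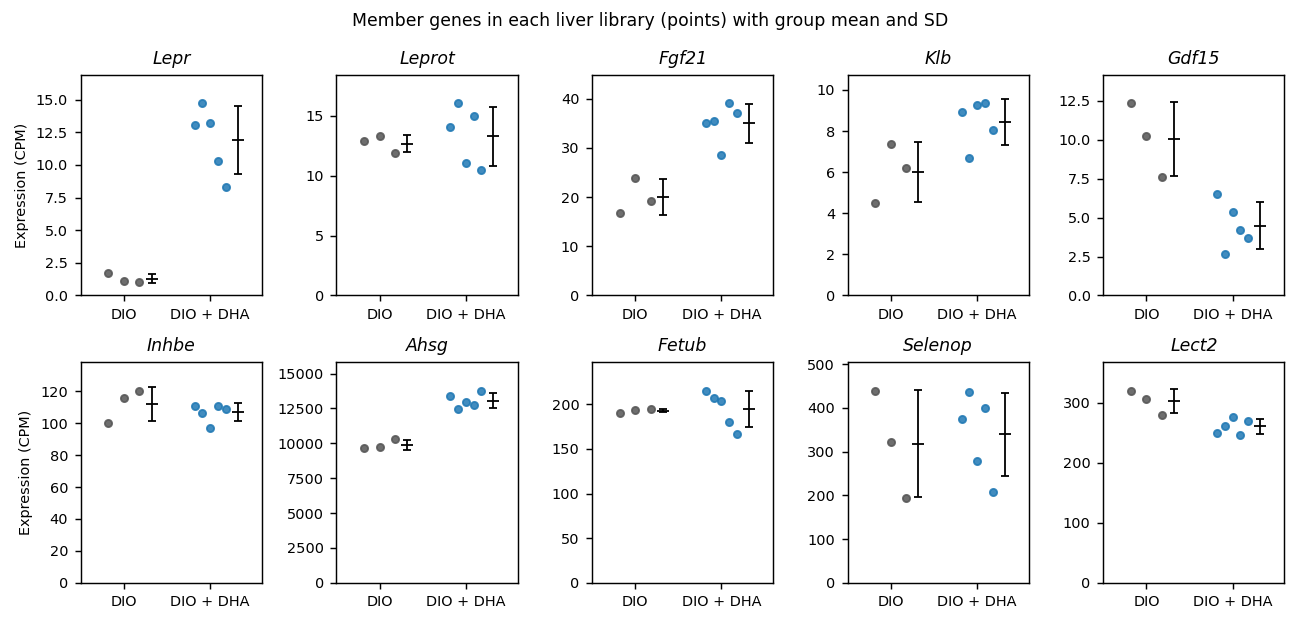
Expression in CPM (vertical axes, each starting at 0) of the 10 members in each of the 3 DIO libraries (grey points) and 5 DIO + DHA libraries (blue points), with the group mean and SD in black. Lepr sat between 1.06 and 1.68 CPM in the DIO libraries and between 8.28 and 14.7 CPM in the DIO + DHA libraries, while Leprot, Klb, Inhbe, Fetub and Selenop overlapped between the groups.

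Lepr, the receptor for leptin and a type I cytokine receptor that signals through JAK2 and STAT3, showed the largest difference of the 10 members. The DIO libraries held 3, 6 and 6 Lepr counts, and the DIO + DHA libraries 66, 44, 37, 44 and 38. On the CPM scale these were 1.68, 1.08 and 1.06 in DIO replicates 1, 4 and 5, and 13.1, 14.7, 13.2, 10.3 and 8.28 in DIO + DHA replicates 1, 2, 4, 5 and 6. Every DIO + DHA library stood above every DIO library, and the lowest of them, replicate 6, was still well clear of the highest DIO library. Mean Lepr was 1.28 ± 0.354 CPM (n = 3, mean ± SD) in the DIO group and 11.9 ± 2.58 CPM (n = 5, mean ± SD) in the DIO + DHA group, which gave a log2 fold change of 3.30 (SE 0.31), or 9.87-fold. The DIO level rests on 15 counts in all, and the ratio of summed counts, each taken over the group's summed library totals, was 10.1 with an exact 95% interval of 5.97 to 18.3 that covers counting error only.

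In GRCm39, Lepr lies on the forward strand of chromosome 4 from 101574601 to 101672549 and Leprot upstream on the same strand from 101504915 to 101516561. The stretches of exon on which reads were counted share 0 bases between both genes, and 58039 bases separate them, so the genes did not compete for reads through a shared exon. Reads came mostly from 3′ ends, and the 7 protein-coding Lepr transcripts of the later GENCODE release vM39 have 7 distinct 3′ ends, so long and short receptor isoforms were not separated. That release also extends Lepr by 3688 bases at its 3′ end, where no reads were counted for the gene.

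The stretch just before the Lepr start is shown because Lepr had the largest change. It covers chr4:101574354-101574600 (GRCm39, forward strand, 247 bases, RefSeq promoter set) and overlaps no counted exon.
Lepr: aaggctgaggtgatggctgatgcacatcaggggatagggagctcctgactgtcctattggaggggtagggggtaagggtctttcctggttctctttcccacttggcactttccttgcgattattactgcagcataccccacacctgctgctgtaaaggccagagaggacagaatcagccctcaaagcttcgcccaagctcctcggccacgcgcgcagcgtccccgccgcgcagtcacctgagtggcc
None of the 3 motifs searched (TGATGNAA, AGGTCA and TATAAA, each on both strands) is in this window.

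Leprot, which encodes a small membrane protein of the endosome that limits the leptin receptor at the cell surface, differed between the groups by less than the spread of their libraries. Its CPM was 12.9, 13.3 and 11.9 in the DIO libraries and 14.1, 16.1, 11.04, 15.0 and 10.5 in the DIO + DHA libraries. The groups overlapped, with DIO + DHA libraries on both sides of all 3 DIO libraries. The log2 fold change was 0.07 (SE 0.17).

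Markers of other tissues and cell types moved with the diet group as Lepr did. The summed level of 12 skeletal muscle markers was 37.0, 36.2 and 31.9 CPM in DIO replicates 1, 4 and 5, and 1346, 1297, 1269, 1276 and 1258 CPM in DIO + DHA replicates 1, 2, 4, 5 and 6. All 12 markers were called higher in the DIO + DHA group, and the summed level differed in an exact two-sided permutation test over libraries (p = 0.0179, the smallest that 3 against 5 allows). The myoglobin gene Mb was at 0 counts in all DIO libraries. Markers of stratified squamous epithelium summed to 4.25 to 7.29 CPM in the DIO group, with 7 of 10 at 0 there, and to 54.8 to 62.3 CPM in the DIO + DHA group (exact permutation p = 0.0179). Of these 10 markers, 5 were tested and 4 called higher. Krt4, at 0.06 and 25.2 CPM, and Krt13, at 0 and 15.7 CPM, gave most of the difference. Krt10 was not called at 5.65 and 6.54 CPM, and Krt1 was at 0 in all libraries. Smooth muscle markers summed to 5.49 to 9.90 CPM and 24.2 to 40.4 CPM (exact permutation p = 0.0179). Most of that rise was Des, a gene of other muscle too, at 1.52 and 16.9 CPM. Acta2 and Actg2 were also called higher, Myh11 and Tagln were not called, and Cnn1 was not tested. The part of these tissues in the Lepr difference was not tested.

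Adipocyte markers, which would mark leptin-producing tissue, summed to 1009 to 1108 CPM in the DIO group and 1040 to 1155 CPM in the DIO + DHA group (exact permutation p = 0.661). Car3 alone, a carbonic anhydrase gene that hepatocytes also express, made up nearly all of that sum, at 1043 and 1022 CPM, and was not called. Of the other markers, 5 were called higher: Adipoq, the adiponectin gene, at 0.679 and 4.40 CPM, Cfd, the adipsin gene, at 1.39 and 33.3 CPM, Retn, the resistin gene, at 0.374 and 2.63 CPM, Cidea at 0.118 and 2.60 CPM, and Ucp1. Ucp1, the defining gene of brown fat, was at 0 in all DIO libraries and held 25, 15, 8, 18 and 23 counts in DIO + DHA replicates 1, 2, 4, 5 and 6. Plin4 was called lower, at 21.3 and 11.2 CPM, and Lep and Plin1 were at 0 in all DIO libraries. The part of fat tissue in the Lepr difference was not tested.

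Markers of several non-parenchymal liver cells were lower in sum. Macrophage and Kupffer cell markers summed to 391 to 453 CPM in the DIO group and 230 to 262 CPM in the DIO + DHA group (exact permutation p = 0.0179), with 6 of 8 called lower, Marco called higher at 19.6 and 30.4 CPM, and Timd4 not called. Sinusoidal endothelial markers summed to 204 to 223 CPM and 153 to 176 CPM (exact permutation p = 0.0179), with Lyve1 and Clec4g called lower and the other 6 not called. Stellate cell markers summed to 237 to 255 and 221 to 236 CPM (exact permutation p = 0.0179), mostly through Dcn, which was not called, while Lrat was called lower and Des, also a muscle gene, higher. Cholangiocyte markers, at 57.2 to 63.4 and 56.8 to 69.4 CPM (exact permutation p = 0.571), and hepatocyte markers (exact permutation p = 0.0714) overlapped between the groups in sum. Alb and Ttr made up most of the hepatocyte sum and were not called, while Apoa1 and Tat were called higher and Hnf4a lower. Spp1, which was not called, made up most of the cholangiocyte sum, and Sox9 was called higher at 2.16 and 4.79 CPM. Pancreas markers overlapped too, at 30.9 to 38.6 and 29.4 to 36.3 CPM (exact permutation p = 0.321). Cela1, which was not called, made up nearly all of that sum, at 35.6 and 32.1 CPM. The other 8 of those 9 were at 0 in the DIO libraries and held at most 2 counts in any DIO + DHA library.

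**Figure D2:**
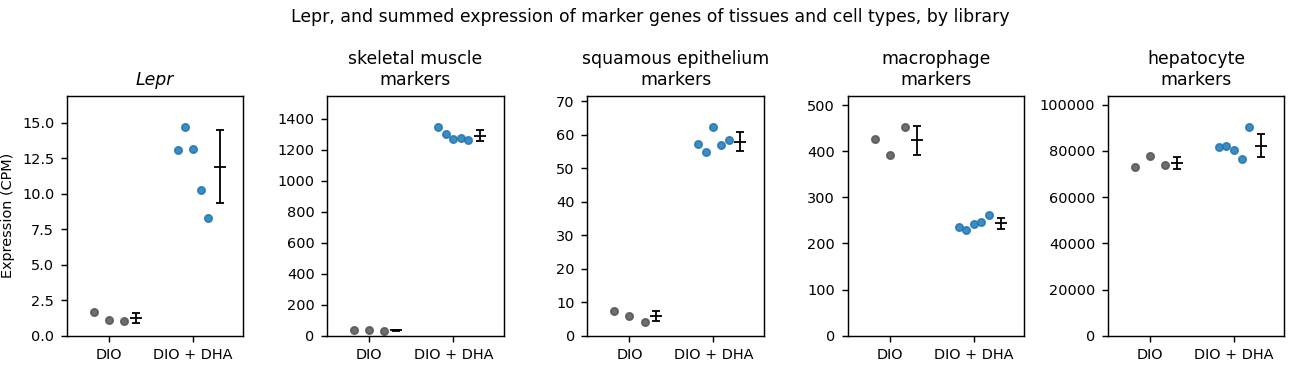
Lepr (left) and the summed expression of markers of skeletal muscle, stratified squamous epithelium, macrophages and hepatocytes, in CPM, in each DIO library (grey) and DIO + DHA library (blue), with the group mean and SD in black and every axis starting at 0. Muscle markers were at 31.9 to 37.0 CPM in the DIO group and 1258 to 1346 CPM in the DIO + DHA group, macrophage markers were lower in all 5 DIO + DHA libraries, and hepatocyte markers overlapped.

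Genes downstream of the leptin receptor were called in both directions. Of 19 tested genes of leptin signalling, 2 were called higher and 4 lower, beside 7.89% and 7.28% of all genes. Their median log2 fold change was 0.00, beside 0.00 over all genes tested. Stat3, the main transcription factor of the receptor, fell from 108 to 64.8 CPM (log2 fold change -0.74, SE 0.09, edgeR quasi-likelihood adjusted p = 2.2e-09). Ptpn1, the phosphatase that dephosphorylates JAK2, fell by 0.61 on the log2 scale (SE 0.10, edgeR quasi-likelihood adjusted p = 6.93e-06). The adaptor gene Grb2 fell by 0.37 (SE 0.12, edgeR quasi-likelihood adjusted p = 0.0217). Socs2, a STAT5-induced suppressor of cytokine signalling, rose by 0.77 (SE 0.14, edgeR quasi-likelihood adjusted p = 4.17e-05), and Irs2, an insulin receptor substrate, rose by 0.63 (SE 0.18, edgeR quasi-likelihood adjusted p = 0.0115). The calls of Irs2 and Grb2 were lost in 6 and 5 of 16 alternative settings.

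Socs3, the classical feedback inhibitor that leptin induces, was not called at 5.48 CPM in the DIO group and 4.16 CPM in the DIO + DHA group. Jak2, the receptor's kinase (log2 fold change -0.20, SE 0.24), and Leprotl1, the paralogue of Leprot (0.05, SE 0.13), were not called either. Lep itself was at 0 counts in 7 libraries and at 2 counts in DIO + DHA replicate 4, too few to test.

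Fgf21, the fasting-induced hepatokine, was higher in every DIO + DHA library than in any DIO library. Its CPM was 16.8, 23.9 and 19.1 in DIO replicates 1, 4 and 5, and 35.0, 35.4, 28.5, 39.03 and 37.0 in DIO + DHA replicates 1, 2, 4, 5 and 6. The gap between the groups lay between DIO replicate 4 at 23.9 and DIO + DHA replicate 4 at 28.5. The means were 20.0 ± 3.62 CPM (n = 3, mean ± SD) and 35.0 ± 3.97 CPM (n = 5, mean ± SD), a log2 fold change of 0.77 (SE 0.13), or 1.71-fold. Without 1 library at a time it ranged from 0.71 to 0.94 and stayed called. The skeletal muscle and fat markers given beside Lepr were higher in the same 5 libraries, and their part in the Fgf21 difference was not tested.

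In GRCm39, Fgf21 lies on the reverse strand of chromosome 7 from 45263310 to 45264914. The 250 bases before its start are shown because Fgf21 and Inhbe are both known targets of ATF4, a transcription factor of the integrated stress response, yet the 2 genes differed in how they moved here. Capitals mark an ATF4 with C/EBP element, TGATGNAA read on the opposite strand, from -139 to -132 relative to the start, and a TATA box, TATAAA, from -28 to -23. The Fgf21 stretch is chr7:45264915-45265164 on the reverse strand, and the Inhbe line gives the 30 bases around its own element (-181 to -174), at chr10:127187880-127187909 on the reverse strand, both from the RefSeq promoter set placed on GRCm39. The RefSeq start of Inhbe lies 2563 bases inside the counted gene, so its stretch falls within a counted exon, whereas that of Fgf21 overlaps none.
Fgf21: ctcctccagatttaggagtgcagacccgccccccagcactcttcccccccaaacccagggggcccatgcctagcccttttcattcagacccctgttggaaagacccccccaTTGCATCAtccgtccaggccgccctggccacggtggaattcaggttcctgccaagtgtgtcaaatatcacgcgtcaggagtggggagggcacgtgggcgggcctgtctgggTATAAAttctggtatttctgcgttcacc
Inhbe: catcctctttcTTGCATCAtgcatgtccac
The same 8 letters stand in both. TGATGNAA occurs in 3.45% of 32851 mouse promoter windows of 250 bases, TATAAA in 12.4% and the nuclear receptor half-site AGGTCA in 14%, and of the members only Fgf21 and Inhbe hold TGATGNAA. A Gdf15 window holds AGGTCA from -55 to -50, and TATAAA is in a Fetub window from -31 to -26 and a Selenop window from -10 to -5. These are matches of letters and not shown to be bound.

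Klb, which encodes the beta-Klotho co-receptor, overlapped between the groups. It was at 4.49, 7.38 and 6.20 CPM in the DIO libraries and 8.91, 6.69, 9.26, 9.35 and 8.06 CPM in the DIO + DHA libraries. Only DIO + DHA replicate 2 fell within the range of the DIO libraries. The log2 fold change was 0.41 (SE 0.22) and was not called, on 8 to 45 counts per library. It ranged from 0.33 without DIO replicate 1 to 0.58 without DIO replicate 4.

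Among 19 tested genes of FGF21 reception and signalling, 2 were called higher and 1 lower, beside 7.89% and 7.28% of all genes. Their median was 0.10. Egr1, an immediate early gene that ERK signalling induces, rose from 8.57 ± 2.52 CPM (n = 3, mean ± SD) to 26.2 ± 3.94 CPM (n = 5, mean ± SD), a log2 fold change of 1.72 (SE 0.18, edgeR quasi-likelihood adjusted p = 1.7e-11). Dusp6, a phosphatase that limits ERK, rose by 0.68 (SE 0.19, edgeR quasi-likelihood adjusted p = 0.0102) with overlapping libraries. Its call was lost in 3 of 16 alternative settings, without DIO replicate 4 or 5 among them. Fgf1, a ligand of the same receptors, fell by 0.35 (SE 0.09, edgeR quasi-likelihood adjusted p = 0.00271), a call lost in 1 of 16 alternative settings. The other 16 tested genes of the list were not called, among them Fos, at 2.73 and 1.97 CPM, and the tested Spry and Spred genes. The receptor genes were not called: Fgfr1 was at 1.27 and 1.66 CPM in the DIO and DIO + DHA groups, Fgfr2 at 6.84 and 7.22, Fgfr3 at 6.54 and 7.92, and Fgfr4, the main liver receptor, at 8.003 and 9.72. Kl and Fgf15 were at 0 counts in all 8 libraries. The skeletal muscle and squamous epithelium markers given beside Lepr were higher in sum in every DIO + DHA library. Their part in the Egr1 and Dusp6 differences was not tested.

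The genes of the PPAR alpha axis, which controls fasting fat oxidation and Fgf21 itself, were called higher or not called. Of 23 tested, 15 were called higher and 0 lower, beside 7.89% and 7.28% of all genes. Their median log2 fold change was 0.45, beside 0.00 over all genes tested. Ppargc1a, the coactivator PGC-1alpha, rose from 7.95 to 34.6 CPM (log2 fold change 2.04, SE 0.16, edgeR quasi-likelihood adjusted p = 7.14e-16). The microsomal omega-hydroxylase genes Cyp4a10 and Cyp4a14 rose by 0.92 (SE 0.06) and 0.77 (SE 0.06), and the fatty acid binding protein gene Fabp1 by 0.57 (SE 0.06). The skeletal muscle markers, at 31.9 to 37.0 and 1258 to 1346 CPM in sum, and the fat genes Adipoq, Cfd, Ucp1 and Cidea were higher in the same libraries, and muscle and brown fat also express Ppargc1a. Their part in the calls of this list was not tested.

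Several central genes of the axis were not called. Ppara was at 123 ± 25.98 CPM (n = 3, mean ± SD) and 111 ± 10.3 CPM (n = 5, mean ± SD), Creb3l3, a liver transcription factor that induces Fgf21, at 562 and 559 CPM, and Cpt1a, the mitochondrial fatty acid importer, at 460 and 481 CPM.

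Gdf15, the stress-induced TGF-beta family ligand, was lower in the DIO + DHA group, against the direction of Fgf21. Its CPM was 12.3, 10.3 and 7.61 in DIO replicates 1, 4 and 5, and 6.53, 2.68, 5.34, 4.21 and 3.70 in DIO + DHA replicates 1, 2, 4, 5 and 6. No DIO + DHA library reached the lowest DIO library, although DIO replicate 5 and DIO + DHA replicate 1 lay close. The means were 10.1 ± 2.37 CPM (n = 3, mean ± SD) and 4.49 ± 1.49 CPM (n = 5, mean ± SD), a log2 fold change of -1.05 (SE 0.24) on 8 to 57 counts per library. It is counted on chromosome 8, from 71082043 to 71085106 on the reverse strand in GRCm39. The summed macrophage and Kupffer cell markers were also lower in the DIO + DHA libraries, at 391 to 453 CPM in the DIO group and 230 to 262 CPM there. Of the 8 markers, 6 were called lower and 1, Marco, higher. The part of these cells in the Gdf15 difference was not tested.

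Inhbe, which encodes the activin E subunit secreted by hepatocytes, did not move with either gene. It was at 99.9, 116 and 120 CPM in the DIO libraries and 111, 107, 97.2, 111 and 109 CPM in the DIO + DHA libraries. The groups overlapped, although DIO replicates 4 and 5 lay above all 5 DIO + DHA libraries. The log2 fold change was -0.08 (SE 0.08), a difference smaller than the spread between libraries.

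**Figure D3:**
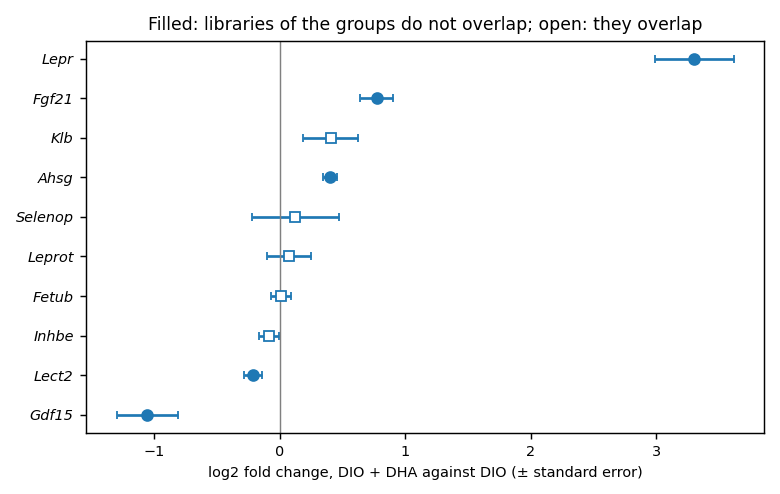
Fitted log2 fold change of DIO + DHA against DIO (horizontal axis) for the 10 members, with bars of 1 SE, filled where the libraries of the groups did not overlap and open where they did. Lepr at 3.30, Fgf21 at 0.77 and Ahsg at 0.40 stood to the right, Gdf15 at -1.05 and Lect2 at -0.21 to the left, and Selenop at 0.13 had the widest bar.

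The integrated stress response, the pathway that induces Fgf21, Gdf15 and Inhbe through ATF4, was split. Of 23 tested genes, 1 was called higher and 4 lower, beside 7.89% and 7.28% of all genes, with a median of -0.10. Atf5, an ATF4 target and transcription factor of the mitochondrial stress response, rose from 311 to 517 CPM (log2 fold change 0.73, SE 0.08, edgeR quasi-likelihood adjusted p = 2.54e-11). Chac1, a glutathione-degrading enzyme gene, fell by 1.64 (SE 0.26, edgeR quasi-likelihood adjusted p = 2.25e-06), Ddit4, an inhibitor of mTORC1, by 1.10 (SE 0.23, edgeR quasi-likelihood adjusted p = 0.000203) and Cebpb, which also serves inflammation, by 1.05 (SE 0.08, edgeR quasi-likelihood adjusted p = 5.35e-17). Cebpg fell by 0.28 (SE 0.10, edgeR quasi-likelihood adjusted p = 0.048), a call lost in 9 of 16 alternative settings. Of Cebpb's exon bases 20.7% overlap another gene.

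The core of the pathway was not called. Atf4 was at 48.0 ± 9.08 CPM (n = 3, mean ± SD) and 48.4 ± 4.36 CPM (n = 5, mean ± SD), Ddit3, the gene of CHOP, at 8.67 and 7.82 CPM, and Trib3, a pseudokinase gene induced by CHOP, at 6.34 and 6.13 CPM. Asns, asparagine synthetase, held 0 to 4 counts in the DIO libraries and 3 to 9 in the DIO + DHA libraries, and its log2 fold change of 1.58 (SE 0.64) was not called.

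Around Gdf15 and Inhbe, 3 of 19 tested genes of the activin and TGF-beta family were called higher and 1 lower, with a median of -0.01. Over all genes tested, 7.89% were called higher and 7.28% lower. Inhba, the activin A subunit, rose from 3.37 to 7.72 CPM (log2 fold change 1.07, SE 0.26, edgeR quasi-likelihood adjusted p = 0.00188). The activin receptor gene Acvr2a rose by 0.96 (SE 0.29, edgeR quasi-likelihood adjusted p = 0.014) and Id1, a target of BMP signalling, by 1.35 (SE 0.14, edgeR quasi-likelihood adjusted p = 1.79e-11). Gdf2, which encodes BMP9, fell by 0.62 (SE 0.18, edgeR quasi-likelihood adjusted p = 0.0113). The call of Gdf2 was lost in 4 of 16 alternative settings, without DIO replicate 4 or 5 among them. That of Acvr2a was lost in 3 of 15, without DIO replicate 5 among them, and that of Inhba in 1 of 15. Inhbb (2.34 and 2.83 CPM), Inhbc, the gene next to Inhbe on chromosome 10 (59.7 and 56.4 CPM), and Fst, the activin antagonist (1.08 and 2.23 CPM), were not called. Gfral, the brainstem receptor of GDF15, was at 0 counts in all libraries. The part of the muscle and squamous epithelium markers, higher in sum in every DIO + DHA library, in the rises of Inhba, Acvr2a and Id1 was not tested.

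Ahsg, which encodes fetuin-A, an abundant plasma glycoprotein that binds calcium phosphate and inhibits the insulin receptor, was higher in the DIO + DHA group. It was at 9651, 9706 and 10317 CPM in DIO replicates 1, 4 and 5, and 13379, 12428, 12931, 12746 and 13775 CPM in DIO + DHA replicates 1, 2, 4, 5 and 6. The groups did not overlap, and within each the libraries differed little. The means were 9891 ± 369.6 CPM (n = 3, mean ± SD) and 13052 ± 530.8 CPM (n = 5, mean ± SD), a log2 fold change of 0.40 (SE 0.06), or 1.32-fold. This precision rests on 17199 to 67591 counts per library.

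Fetub, the fetuin-B gene, did not move with its neighbour although only 18884 bases separate the 2 genes on chromosome 16 in the counted annotation. It was at 191, 194 and 194 CPM in the DIO libraries and 215, 208, 204, 180 and 167 CPM in the DIO + DHA libraries. The DIO + DHA libraries lay on both sides of the tightly grouped DIO libraries. The log2 fold change was 0.01 (SE 0.08). The next list holds 8 tested genes that neighbour the fetuins or encode cystatins, receptors and ligands linked to them. Of these, 0 were called higher and 1 lower, beside 7.89% and 7.28% of all genes, with a median of -0.10. Met, the hepatocyte growth factor receptor, fell by 0.49 (SE 0.11, edgeR quasi-likelihood adjusted p = 0.000749). The adjoining plasma protein genes were not called, with Hrg at 480 and 431 CPM, Kng1 at 2671 and 2610 CPM and Kng2 at 327 and 312 CPM.

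Selenop, selenoprotein P, the selenium carrier of plasma, varied more between mice than Inhbe, Ahsg, Fetub or Lect2, the other members with at least 178 counts in every library. It was at 439, 322 and 194 CPM in DIO replicates 1, 4 and 5, and 375, 437, 279, 401 and 207 CPM in DIO + DHA replicates 1, 2, 4, 5 and 6. Each group spanned nearly the same range, and the coefficient of variation was 38.6% among DIO mice and 27.8% among DIO + DHA mice on 783 to 1894 counts per library. The log2 fold change of 0.13 (SE 0.35) was not called, and it was -0.14 without DIO replicate 5 and 0.40 without DIO replicate 1. The last 439 of its counted exon bases, 15.4% of the total and the 3′ end itself, overlap Ccdc152 on the opposite strand, and unstranded counting left out reads that fell there. The later GENCODE release vM39 extends Selenop by 3696 bases at its 3′ end, where no reads were counted for the gene.

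Selenium and selenoprotein genes gave 1 call higher and 5 lower of 27 tested, beside 7.89% and 7.28% of all genes, with a median of -0.16. Gpx3, the plasma glutathione peroxidase, rose by 0.44 (SE 0.13, edgeR quasi-likelihood adjusted p = 0.0109) with overlapping libraries, a call lost in 3 of 16 alternative settings, without DIO replicate 1 among them. Gpx1, the cytosolic glutathione peroxidase, fell by 0.22 (SE 0.06, edgeR quasi-likelihood adjusted p = 0.00882), Msrb1, a methionine sulfoxide reductase, by 0.25 (SE 0.07, edgeR quasi-likelihood adjusted p = 0.00695) and Selenbp1, a selenium-binding protein, by 0.34 (SE 0.07, edgeR quasi-likelihood adjusted p = 0.000284). Lrp1, a lipoprotein receptor, fell by 0.40 (SE 0.10, edgeR quasi-likelihood adjusted p = 0.0044), and Sephs2, which makes the selenium donor for selenocysteine, by 0.22 (SE 0.08, edgeR quasi-likelihood adjusted p = 0.0386), a call lost in 10 of 16 alternative settings. The call of Gpx1 was lost in 3 of 16, without DIO replicate 4 or 5 among them. That of Msrb1 was lost in 2 of 16, without DIO replicate 5 among them, and that of Lrp1 in 1 of 16. Gpx4, the phospholipid hydroperoxide peroxidase, was not called at 22.3 and 19.7 CPM, and Lrp8, the main selenoprotein P receptor of brain and testis, was at 0 counts. Overlapping genes cover 84.0% of Gpx1's exon bases and 36.4% of Sephs2's, and reads there were left out.

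Lect2, a chemotactic hepatokine, was slightly lower in the DIO + DHA group. It was at 320, 306 and 280 CPM in DIO replicates 1, 4 and 5, and 250, 261, 275, 246 and 269 CPM in DIO + DHA replicates 1, 2, 4, 5 and 6. The groups did not overlap, but DIO replicate 5 at 280 and DIO + DHA replicate 4 at 275 almost met. The means were 302 ± 20.2 CPM (n = 3, mean ± SD) and 260 ± 12.4 CPM (n = 5, mean ± SD), a log2 fold change of -0.21 (SE 0.07). This call was lost in 7 of 16 alternative settings, among them without DIO replicate 1 or 4 and without DIO + DHA replicate 1 or 5. Release vM39 extends Lect2 by 5800 bases at its 3′ end, where no reads were counted for the gene.

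Other secreted liver proteins moved in both directions. Of 32 tested hepatokine genes outside the members, 8 were called higher and 11 lower, beside 7.89% and 7.28% of all genes. Their median was -0.05. Among those with the largest mean level, Apoa4, an apolipoprotein, rose from 542 to 1632 CPM (log2 fold change 1.59, SE 0.07, edgeR quasi-likelihood adjusted p = 8.04e-26) and Hamp, the iron hormone hepcidin, from 242 to 721 CPM (1.57, SE 0.07, edgeR quasi-likelihood adjusted p = 2.63e-25). Igfbp2, a binding protein of insulin-like growth factors, rose by 1.38 (SE 0.07, edgeR quasi-likelihood adjusted p = 3.95e-23) and the retinol carrier gene Rbp4 by 0.36 (SE 0.06, edgeR quasi-likelihood adjusted p = 2.34e-06). Lower were the acute phase gene Orm1 (-0.60, SE 0.06, edgeR quasi-likelihood adjusted p = 1.83e-11), Itih3, an inter-alpha-trypsin inhibitor chain (-0.45, SE 0.06, edgeR quasi-likelihood adjusted p = 3.41e-08), and the C1 inhibitor gene Serping1 (-0.21, SE 0.06, edgeR quasi-likelihood adjusted p = 0.0108). The call of Serping1 was lost in 2 of 16 alternative settings, without DIO replicate 4 among them.

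Igfbp1, a fasting-responsive binding protein, rose by 0.49 (SE 0.12, edgeR quasi-likelihood adjusted p = 0.003), a call lost in 2 of 16 alternative settings, whereas Angptl4, a PPAR target that inhibits lipoprotein lipase, was not called at 463 ± 36.1 CPM (n = 3, mean ± SD) and 487 ± 36.4 CPM (n = 5, mean ± SD). Opposite-strand genes overlap 69.8% of Apoa4's exon bases.

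**Figure D4:**
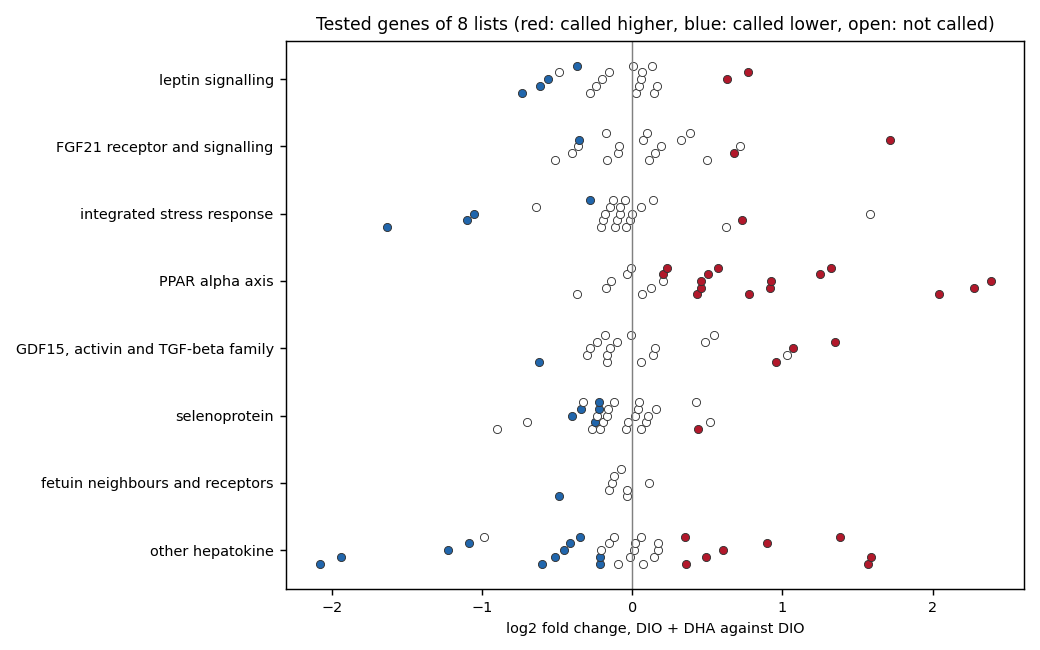
Fitted log2 fold change of DIO + DHA against DIO (horizontal axis) for every tested gene of the 8 lists outside the members (rows), red where called higher, blue where called lower and open where not called, and spread vertically for legibility. The PPAR alpha axis holds 15 red and 0 blue points, the fetuin list holds 0 red and 1 blue, and the other lists hold points of both colours. Over all genes tested, 7.89% were called higher and 7.28% lower.

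Over the 8 libraries, the genes whose log2 CPM followed Lepr most closely were H3c15 (Pearson r = 0.994), Apoa1 (0.994), Dusp26 (0.993), Tpm1 (0.993) and Hhex (0.992), among 12061 genes ranked. Those nearest to Fgf21 were Tceal8 (0.984), Bc1 (0.983), Twf2 (0.978), Scn4b (0.973) and Atp1b1 (0.973), and those nearest to Gdf15 were Pgap2 (0.969), Rab1a (0.967), Fam241a (0.963), Rasgrp2 (0.956) and Hdc (0.952). These coefficients describe 8 points that share the diet difference. The skeletal muscle markers given beside Lepr were also higher in every DIO + DHA library, and their part in these rankings was not tested. Once each group's mean was subtracted, only Tceal8 remained among the 5 nearest genes of the same member.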

How the data were processed

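The authors made 3′-enriched libraries of liver poly(A) RNA, aligned the reads to GRCm39 with STAR 2.7.9a and counted them on GENCODE vM33 exons with featureCounts 1.6.0. The authors deposited raw counts per gene. Only unique alignments were counted, without strand, and a read on overlapping genes went to neither. The sources used here do not say whether molecular identifiers were collapsed. Intervals cover counting error only, and they are too narrow if copies of the same molecule were counted separately. Names came from GENCODE vM39 (56323 of 56884 identifiers), and of the 2 identifiers of Ddit3 the one with more exon bases was used.

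The study's filter was used: a gene was dropped when over 50% of libraries in both groups had under 5 counts. After TMM normalization, counts were tested with the robust quasi-likelihood F test of edgeR 4.0.16; SE is the fold change over the root of F. Self-tests ran on simulated counts.

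The members and lists were chosen with earlier results of these data known, so p-values of list genes are not independent evidence. The text names every member, every called gene of a list (where over 8, the 4 higher and 4 lower with the largest mean CPM), a set of core genes called or not, and for Lepr, Fgf21 and Gdf15 the 5 tested genes of at least 1 CPM with the largest Pearson correlation of log2 CPM (prior count 2). Genes named outside that rule were chosen after their values were seen. They are Lep, Kl, Fgf15, Gfral and Lrp8 at or near 0, uncalled Fos, Spry and Spred genes, and single marker genes. Some genes that the rule names are not reported here. Marker sums were compared with exact permutation tests (two-sided). RefSeq promoter sequences were found for all 10 members and placed on GRCm39 by exact match. Alternatives covered normalization, filter, test (DESeq2 1.42.0, limma-voom), a replicate block and leaving out each library.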

Additional observations from a re-analysis of the deposited data

Results flagged for a closer look

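Jak2, the kinase bound to the leptin receptor, had 1 library far from the others of its group. DIO + DHA replicate 2 was at 9.70 CPM, and the other 4 libraries of the group lay close together below it, so that its gap to the nearest was 0.811 of the group's whole range, past Dixon's critical value for 5 samples. It was the 1 such gene among 42 checked, where chance alone passes about 1 in 20 groups.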

How the results depend on the processing

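Lepr (log2 fold change 3.20 to 3.42), Fgf21 (0.71 to 0.94), Gdf15 (-1.27 to -0.90) and Ahsg (0.37 to 0.44) stayed called in every alternative that could be run for them. Lect2 (-0.26 to -0.17) lost its call in 7 of 16. The filter of 10 counts in every library drops Lepr, Klb and Gdf15, which leaves 3 called members. Uncalled Fetub ranged from -0.03 to 0.06 and Selenop from -0.14 to 0.40 over single libraries left out.

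Of all genes tested, 1883 were called, against 859 by limma-voom (log-odds B over 0) and 1432 to 1860 without 1 library. With limma-voom the named list genes Irs2, Grb2, Fgf1, Cebpg, Inhba, Gdf2, Acvr2a, Lrp1, Sephs2, Gpx1, Gpx3, Msrb1, Igfbp1 and Serping1 lost their calls. The activin list gave 2 calls with the stricter filter, 2 with the Wald test of DESeq2 and 1 with limma-voom, the selenoprotein list 1 with limma-voom, and the fetuin list 2 by library size only and 2 without a filter. Without 1 library at a time the FGF21 list gave 2 to 5 calls, with 5 without DIO + DHA replicate 1, and the fetuin list 1 to 2, with 2 without DIO + DHA replicate 1, 2 or 4. The cause was not tested. Of the 22 list genes that the naming rule gives and that were not called, 10 changed sign in at least 1 alternative and 3 were called in at least 1.

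The replicate numbers 1, 4 and 5 occur in both groups but belong to different mice, and deviations from the group means of same-numbered libraries did not go together (r = -0.009, -0.019 and -0.045 over 6213 genes). With the number as a replicate block 1539 genes were called, Gdf15 gave -0.90, and the named list genes Irs2, Grb2, Cebpg, Sephs2, Gpx3 and Igfbp1 lost their calls. Depth limits Lepr most, at 3 to 6 counts in the DIO libraries.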
